A study of Mus musculus with 8 samples.

Results

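miR-124, a miRNA characteristic of neurons, was followed through the RNA-induced silencing complex (RISC) of 8 mouse brains as both strands of its hairpin, mmu-miR-124-3p and mmu-miR-124-5p, here called miR-124-3p and miR-124-5p. Its members were all read sequences that the deposited table named as either arm. There were 645 of them, 617 for miR-124-3p and 28 for miR-124-5p, of 47204 sequences in the whole table and 26201 with a mature miRNA name. Their levels were summed for each arm and for each 6mer seed, the bases at positions 2 to 7 of a read.

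All 8 mice were females of a mixed C57BL/6J and SJL background that carried the 5XFAD transgene, which drives mutant human amyloid precursor protein and presenilin in neurons and leads to amyloid deposition. Rubicon, a brake on autophagy, was heterozygous in the 4 het mice (5XFADtg Rubicon+/-) and lost from both alleles in the 4 ko mice (5XFADtg Rubicon-/-). The methods give the age as 6 or 8 months, the account of this comparison gives 6 months, and the labels give no age for any mouse, so age was not used in a test. That account also names 3 het mice, while the labels and the methods give 4 mice per genotype, and all 4 were used. Cortex and hippocampus were lysed together, Argonaute proteins were captured with a GW182 peptide, and the small RNAs held by them were sequenced. No mice without the transgene were part of these libraries, and the labels restrict the loss of Rubicon to no cell type.

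miR-124 is made in neurons as they leave the dividing state, and it is known for lowering many mRNAs of non-neuronal and progenitor cells, among them those of the splicing regulator Ptbp1. Dicer cuts the hairpin into a duplex, of which the 3p strand is usually kept by Argonaute as the guide while the 5p strand is mostly discarded. The seed decides which mRNAs a guide binds, so a read that starts 1 base earlier or later has another seed and other targets. The study scored each seed by the viability of cells that received an siRNA with that seed, the mean over 3 mouse cell lines, where a low score marks a toxic seed. The GENCODE M21 annotation of the mouse genome (GRCm38) lists 3 miR-124 hairpins, all on the plus strand and all within an exon of a long non-coding RNA. They are Mir124a-1 (chr14:64590657-64590741, in Mir124a-1hg), Mir124a-2 (chr3:17795662-17795770, in Mir124-2hg) and Mir124a-3 (chr2:180894040-180894107, in Gm27032), and the table did not tell their products apart.

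The seeds carry the result for this miRNA, because a shift of a single base at the start of a read exchanges one for the next. Those read from its 4 most abundant start classes of the 3p arm and from the main start of the 5p arm are shown here, as the deposited table gives them.
miR-124-3p, main start: AAGGCA
miR-124-3p, start 1 nt upstream: UAAGGC
miR-124-3p, start 1 nt downstream: AGGCAC
miR-124-3p, start 2 nt downstream: GGCACG
miR-124-5p, main start: GUGUUC
The upstream start moves AAGGCA 1 place to the right behind a U, and the 2 downstream starts lose bases at its left end. The viability score was 57.3 for AAGGCA, 31.2 for UAAGGC, 30.4 for AGGCAC, 37.2 for GGCACG and 54.8 for GUGUUC.

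The libraries held between 509839 and 19878054 reads, and both with over 5000000 reads were ko. Levels are given in CPM, reads per 1000000 reads of the library. The smallest level taken as shown, 3 reads, was 5.79 CPM in the shallowest library (het replicate 1) and 0.151 CPM in the deepest (ko replicate 2). Of 17 miRNAs known from neurons, both miR-124 arms included, all 17 were measured, and their summed level was 216138 to 269924 CPM in het and 223012 to 327865 CPM in ko. Of the 7 miRNAs listed for epithelium, 3 of the miR-200 family were lower in ko, past an adjusted p of 0.05 in limma, where 1.3% of 463 miRNAs passed. Of the others, miR-200c-3p (log2 fold change -2.86, adjusted p = 0.746), miR-141-3p (-3.94, adjusted p = 0.495) and miR-203-3p (-0.16, adjusted p = 0.975) did not pass in limma, and miR-205-5p was below the filter. The summed level of the list was 2249 to 8555 CPM in het and 226 to 1794 CPM in ko. Their part in the values of miR-124 was not tested. The genotypes rest on the labels.

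The first comparison asked how much miR-124 the RISC held in each brain. miR-124-3p was number 4 of all miRNAs by mean level with 52509 ± 14832 CPM (SD, n = 8), and miR-124-5p was number 180 with 348.3 ± 92.3 CPM. Both arms together made up 3.6% to 7.83% of all miRNA reads. In bulk tissue, fewer neurons and less miR-124 per neuron cannot be told apart.

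The level of miR-124-3p was 59819, 65791, 58600 and 34019 CPM in het replicates 1 to 4. In ko it was 53517, 36837, 37530 and 73960 CPM. The groups overlapped, since the highest library was ko replicate 4 and the lowest was het replicate 4, which differed 2.17-fold. Among all miRNAs of its own library, miR-124-3p ranked between 1 in het replicate 2 and 6 in het replicate 4, ko replicate 2 and ko replicate 3.

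These levels averaged 54557 ± 14048 CPM for het against 50461 ± 17458 CPM for ko (SD, 4 mice per genotype). The log2 fold change of ko against het was -0.13 (SE 0.28, 95% interval -0.73 to 0.47, limma adjusted p = 0.975). It was 0.09 after each library was centred on its median and 0.01 after TMM scaling, but these scalings moved the median log2 fold change of all miRNAs alike, from -0.09 to 0.13 and 0.05. Relative to that median, miR-124-3p was at -0.04 in each of the 3.

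The level of miR-124-5p, the passenger strand, was 525.1, 356.3, 264.0 and 401.7 CPM in het. In ko it was 353.2, 343.0, 328.7 and 214.6 CPM. The highest library was het and the lowest was ko, but het replicate 3 lay below 3 of the 4 ko libraries. Against the het mean of 386.8 ± 109 CPM, the ko mean of 309.9 ± 64.3 CPM gave a log2 fold change of -0.30 (SE 0.28, 95% interval -0.91 to 0.31, limma adjusted p = 0.948). Neither of the 2 arms passed the test, in a fit that called 1.3% of 463 miRNAs, and neither had an unadjusted p under 0.05, which 7.34% of all miRNAs had. Under the same scalings the value of 5p was -0.08 and -0.16, and relative to the median of all miRNAs it was -0.21 in each.

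**Figure D1:**
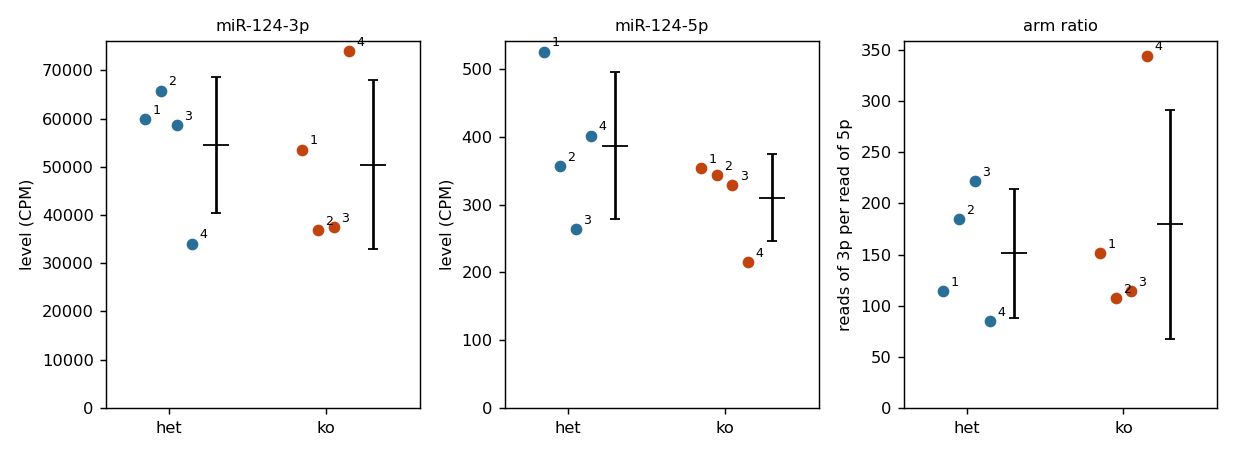
Level of miR-124-3p (left) and miR-124-5p (middle) in CPM and reads of 3p per read of 5p (right) in each library, with replicate numbers beside the points and the mean ± SD of 4 libraries as black bars. Het and ko points overlap in all panels, and ko replicate 4 has the highest 3p level, the lowest 5p level and the highest ratio.

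The arms did not follow each other from library to library. Between 84.7 and 222.0 reads of 3p were found per read of 5p in het, and between 107.4 and 344.7 in ko. The most lopsided library was ko replicate 4, which had the most 3p and the least 5p of all 8. Over the 8 libraries, Pearson's r of the log2 levels of the arms was -0.33, where all values of a library share its depth. Of all miR-124 reads, 0.756% ± 0.329 were 5p in het brains against 0.684% ± 0.287 in ko brains (4 mice per genotype, p = 0.714 by an exact two-sided permutation test, the test used for all shares of this kind). For 1 library the 95% Wilson interval of this share was at most 0.206 percentage points wide, which covers counting error only.

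The second comparison asked which seeds the arms presented. Seed AAGGCA, that of the main start, was on 79.4% to 82.1% of miR-124-3p reads, and its mean level was 42321 CPM. UAAGGC, the seed of the start 1 nt upstream with the lower viability score, was on 16.1% to 18.7%, and 97.6% of its reads were placed on a hairpin. With 9241 CPM on average, this form alone was far above the whole 5p arm. AGGCAC, the seed of the start 1 nt downstream, was on 0.958% to 1.35%.

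In single libraries the share of UAAGGC in miR-124-3p was 16.1%, 17%, 18.5% and 17.9% in het. In ko it was 18.7%, 17.9%, 18.6% and 17.1%. These shares stayed within 2.57 percentage points of each other while the level of the arm differed 2.17-fold. All seeds other than AAGGCA together held 19.1% ± 1.09 of the 3p arm for het against 19.9% ± 0.705 for ko (4 mice per genotype, exact permutation p = 0.257).

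**Figure D2:**
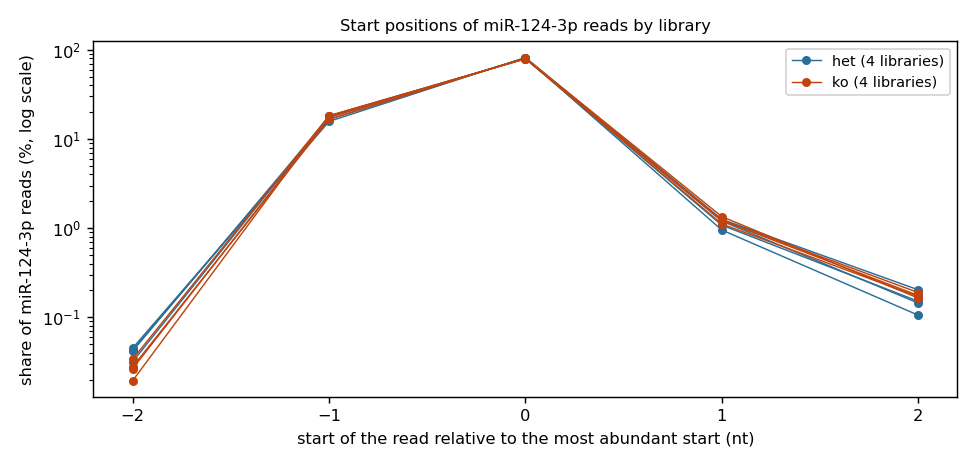
Share of miR-124-3p reads (%, log scale) by the start of the read relative to the main start, 1 line per library, for reads placed on a miR-124 hairpin. The lines of het and ko lie close together from 1 nt upstream to 1 nt downstream, and the main start holds 79.3% to 82.0% of reads in every library.

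As a level, the UAAGGC form was 9636, 11184, 10817 and 6100 CPM in het and 9993, 6606, 6980 and 12616 CPM in ko. Its order over the libraries was close to that of the arm, with ko replicate 4 at the top and het replicate 4 at the bottom. The log2 fold change was -0.07 (SE 0.28, 95% interval -0.68 to 0.54, limma adjusted p = 1.0), and for AAGGCA it was -0.14 (95% interval -0.76 to 0.47). Centring gave 0.10 and 0.03, but it moved the median of all combinations of miRNA and seed from -0.03 to 0.15. Relative to that median, UAAGGC stayed at -0.04 and AAGGCA at -0.12 with and without centring. For AGGCAC, at 622.6 CPM, it was 0.00 (95% interval -0.71 to 0.72), and for GGCACG, at 84.8 CPM, it was 0.12 (95% interval -0.64 to 0.87).

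The 3p arm had 85 seeds in all, of which 10 had a mean of at least 10 CPM and were tested. None of the 10 was called by limma at an adjusted p under 0.05, where the fit called 0.781% of 896 combinations of miRNA and seed, and edgeR and DESeq2 called none either. At an unadjusted p under 0.05 there was 1 of 10, against 6.92% of all combinations. This was GUAAGG, from reads whose first bases did not match a miR-124 hairpin. It had 23.2, 19.3, 26.8 and 16.1 CPM in het replicates 1 to 4 and 17.6, 8.54, 9.88 and 6.86 CPM in the ko replicates, and ko replicate 1 was above het replicate 4. Its log2 fold change was -0.99 (SE 0.41) with an adjusted p of 0.648 in limma.

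A further 5 seeds of the 3p arm were tested, each with a mean under 100 CPM. UUAAGG (75.6 CPM, viability 81.9), AUAAGG (42.8 CPM, viability 87.7) and CUAAGG (12.9 CPM, viability 67.1) hold UAAGG behind 1 other base, so their reads reach further upstream than those of UAAGGC. Of the UUAAGG reads, 23.8% lay on a hairpin 2 nt upstream, while no AUAAGG or CUAAGG read matched one at its start. Of the reads of AUUAAG (11.1 CPM, viability 89.6), 58.7% lay on a hairpin 3 nt upstream, and GAGGCA (16.1 CPM, viability 7.5) was off the hairpins. Their log2 fold changes ranged from -0.36 to 0.05, and no 95% interval excluded 0.

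The 5p arm had 5 seeds, of which GUGUUC held 94.5% to 99.6% of the reads and was the one tested. Its level was 523.2, 351.4, 256.2 and 389.0 CPM in het and 345.2, 336.3, 321.0 and 202.8 CPM in ko. The lowest library was ko replicate 4, and the groups overlapped. GUGUUC's log2 fold change of -0.32 (SE 0.29, 95% interval -0.94 to 0.31) had a limma adjusted p of 0.941. Other seeds were on 1.96% ± 1.34 of 5p reads for het against 3.01% ± 1.65 for ko (4 mice per genotype, exact permutation p = 0.4), below the share in the 3p arm in 8 of 8 libraries.

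Other small RNAs could carry the same seeds, so seeds were also summed over all RNA classes. miR-124 supplied 98.3% to 98.7% of all AAGGCA reads, 93.9% to 97% of all UAAGGC reads and 98.9% to 100% of all GUGUUC reads. Its part reached lower values for GUAAGG (79.3% to 100%), GGCACG (71.7% to 91.3%) and CUAAGG (66.7% to 100%). Of all GAGGCA reads it supplied 4.23% to 13.6%. By mean level, AAGGCA was seed number 6 of the RISC and UAAGGC number 21. The total of AAGGCA had a log2 fold change of -0.15 (95% interval -0.75 to 0.46, limma adjusted p = 0.996), and that of GUGUUC one of -0.32 (95% interval -0.94 to 0.29, adjusted p = 0.961). Leaving out 1 library at a time gave -0.36 (without het replicate 4) to -0.02 (without ko replicate 2) for the AAGGCA total and -0.50 (without het replicate 3) to -0.15 (without ko replicate 4) for that of GUGUUC. Neither passed in a fit that called 0.303% of 990 seeds, and neither had an unadjusted p under 0.05, which 5.76% of all seeds had.

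Many other miRNAs have shifted starts, and miR-124-3p was the largest source of such reads by level. It gave 11.2% to 19.6% of all miRNA reads whose seed was not the main one of their miRNA. By share, with 19.5% of its own reads, it was number 14 of 98 miRNAs with at least 1000 CPM, whose median was 3.01%.

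Because UAAGGC and AGGCAC score below 40, 17.6% to 20.1% of miR-124-3p reads had a seed viability under 40. Among reads of all kinds it was 10.5% to 14.4%, and miR-124-3p was above it in each of the 8 libraries. The UAAGGC form of miR-124-3p was 4.58% to 12.2% of all reads with a viability under 40, lowest in het replicate 4 and highest in ko replicate 4. Over all miR-124 reads, seed viability averaged 52.5 ± 0.25 for het against 52.3 ± 0.167 for ko (4 mice per genotype, exact permutation p = 0.2). Without miR-124 reads the mean seed viability of a library was higher by 0.125 to 0.427.

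The third comparison followed single reads and their 3′ ends. Of the 617 sequences of the 3p arm, 76 passed the filter of 10 CPM and held 98.6% of its reads, and of the 28 of the 5p arm 4 passed and held 92.5%. None of these 80 was called or had an unadjusted p under 0.05 in limma, where the fit called 0.485% of 3299 sequences and gave 5.3% an unadjusted p under 0.05. The edgeR and DESeq2 fits called none of them either. The median log2 fold change was -0.07 for the 3p reads and -0.33 for the 5p reads.

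The most abundant read of the 3p arm had the main start and 21 nt, and made up 20% to 32.2% of the arm. Its level was 18968, 15870, 15490 and 6806 CPM in het and 17220, 10662, 10158 and 21495 CPM in ko. It was followed by the 19 nt read with 8724 CPM, the 20 nt read with 8498 CPM and the 22 nt read with 3718 CPM from the same start, and by a 22 nt read from the start 1 nt upstream with 2532 CPM. Their log2 fold changes lay between -0.54 for the 20 nt read and 0.19 for the upstream read. That of the 20 nt read was -0.27 without het replicate 2 and -0.89 without het replicate 4. In the 5p arm the 21 nt read had 193.4 CPM, followed by reads of 22 nt (70.2 CPM), 20 nt (38.5 CPM) and 23 nt (20 CPM), with log2 fold changes between -0.48 and 0.09. The fifth was the 21 nt read with 1 added A, whose mean of 4.79 CPM was below the filter.

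**Figure D3:**
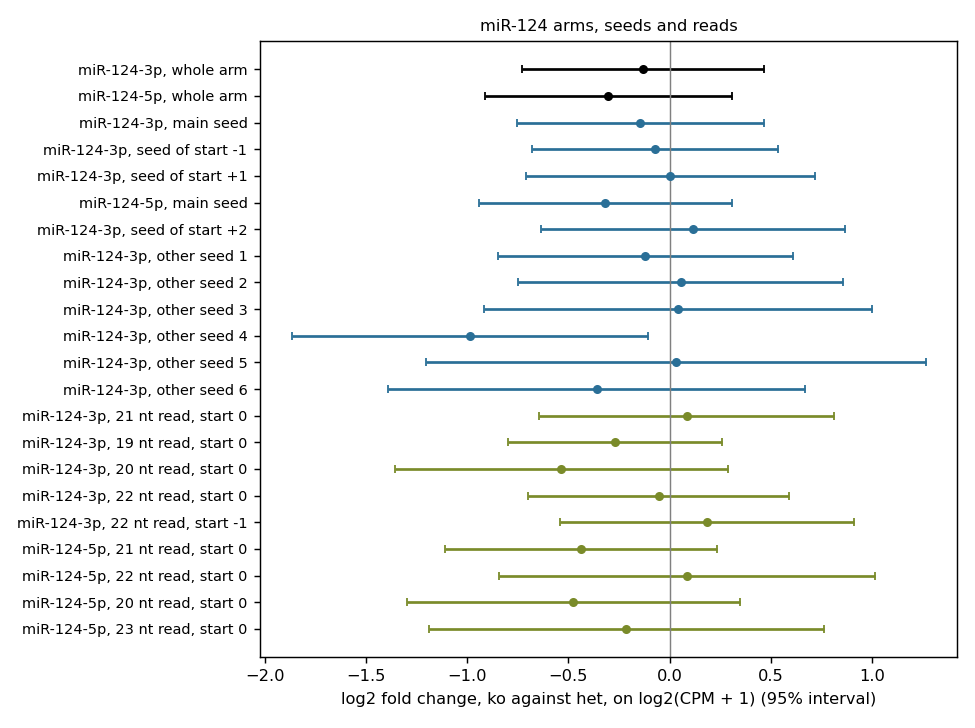
Log2 fold change of ko against het on log2(CPM + 1), with 95% intervals from limma, for both arms (black), their 11 tested seeds (blue) and the most abundant hairpin-matched reads (green), with negative values lower in ko. The interval of 1 seed, number 4 of the other seeds (GUAAGG, 16.0 CPM), excludes 0 before adjustment.

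Main-seed reads of the 3p arm averaged 20.56 ± 0.131 nt for het against 20.66 ± 0.18 nt for ko, and those of the 5p arm 21.18 ± 0.0681 nt against 21.29 ± 0.0376 nt (4 mice per genotype, exact permutation p = 0.4 and 0.0857). For the 5p arm all but 1 of the het libraries were below every ko library. After Benjamini-Hochberg adjustment, the smallest p over the 12 measures of this kind was 0.386. With 4 mice against 4 the smallest p an exact test could give was 0.0286.

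Ends were then compared between the main start and the start 1 nt upstream within the same libraries, a comparison that does not use the genotype and was chosen after the values were seen. Positions are counted from 1 at the main start. Reads from the upstream start ended earlier on the hairpin. Of them, 31.9% ± 4.8 ended at position 19, against 25.1% ± 4.34 of reads from the main start (SD, n = 8), and the share was higher in 8 of 8 libraries. Position 21 was the last base of 32.4% ± 5.49 against 40.1% ± 6.07, and position 22 of 5.13% ± 1.48 against 10.8% ± 3.18, both lower in 8 of 8 libraries, while positions 18 and 20 were higher in 8 of 8. Each of these 5 differences had an exact sign-flip permutation p = 0.0078, the smallest that 8 libraries can give, and 0.01 after adjustment over the 9 comparisons of ends and tails made in this way. The shares of a start class add up to the whole, so these tests are not independent of each other.

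At position 20 the libraries differed more than the start classes did from each other. From the main start, het replicates 2 and 3 had 33.8% and 31.2% of reads ending there, and the other 6 libraries had 15.9% to 21.3%. The upstream start showed the same libraries high, with 36.7% and 37.6% against 19.6% to 27.1%. Over the 8 libraries the share at position 20 of one start class followed the other with Pearson's r of 0.98, where both are shares within the same libraries. The other het libraries lay within the range of the ko libraries for both starts.

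**Figure D4:**
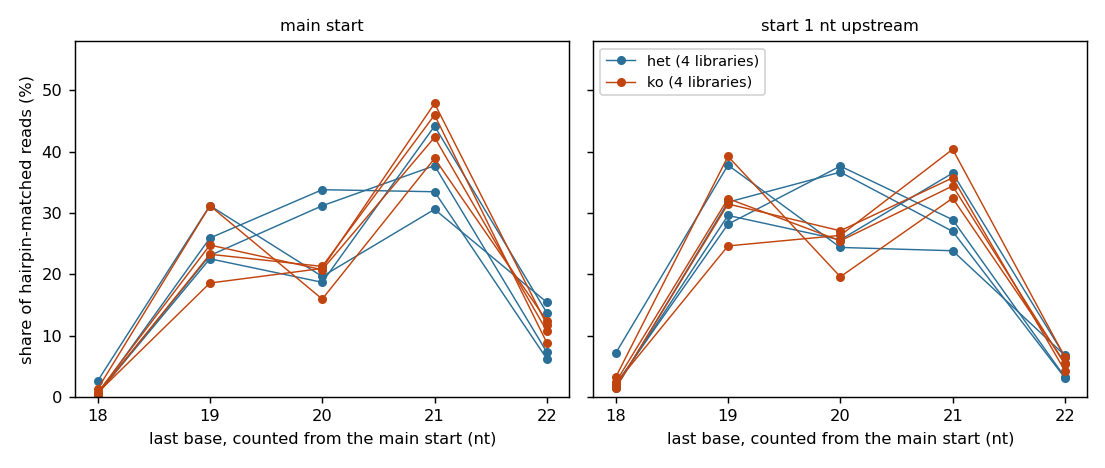
Share of hairpin-matched miR-124-3p reads (%) by the position of the last base, counted from the main start, for reads from the main start (left) and from the start 1 nt upstream (right), 1 line per library. At position 20 a pair of het libraries stands above the others in both panels, and in every library position 19 is higher and position 21 lower on the right than on the left.

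Bases beyond the hairpin sequence at the 3′ end are called tails, and enzymes that add nucleotides to miRNAs are a known source of them. The source of those found here was not tested. A U tail was found on 7.15%, 7.59%, 7.71% and 11.5% of miR-124-3p reads in het and on 7.34%, 9.04%, 6.89% and 19.9% in ko (exact permutation p = 0.686). The share in ko replicate 4 was more than that of any other library, and het replicate 4 was next. Both start classes showed it in ko replicate 4, with 20% at the main start and 20.6% at the upstream start. Over all libraries the share with a U tail at the upstream start differed from that at the main start by a mean of -0.0048 percentage points (SD 0.556, exact sign-flip permutation p = 0.992, n = 8). A tails were less frequent at the upstream start in 6 of 8 libraries, with 2.78% ± 0.685 against 3.26% ± 0.701 (exact sign-flip permutation p = 0.0312, adjusted p = 0.0352). Whether an added A is counted as a tail depends on where the read ends, and the ends differed between the start classes. The part of the ends in this difference was not tested.

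The reads of the other miRNAs averaging at least 100 CPM were pooled. A U tail was found on 3.53% to 4.51% of this pool, and miR-124-3p was above it in 8 of 8 libraries. Like miR-124-3p, the pool was highest in ko replicate 4 (4.51%) and next in het replicate 4 (4.44%). By mean U tail share, miR-124-3p was number 16 of 73 miRNAs with at least 1000 CPM and U tails on at least 0.5% of reads. An A tail was found on 2.22% to 4.07% of miR-124-3p reads and on 5.57% to 6.8% of the pool, with miR-124-3p lower in 8 of 8 libraries. Each of these 2 tail comparisons had an exact sign-flip permutation p = 0.0078 (adjusted p = 0.01). Added bases that match a hairpin were counted as its sequence, so A or U tails are understated where the hairpin itself goes on with that base. This depends on the sequence of each hairpin, so the tests against the pool do not measure tailing alone. A single read, the main start with 21 nt and 1 added U, held 1110 to 2057 CPM in 7 libraries and 9225 CPM in ko replicate 4.

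**Figure D5:**
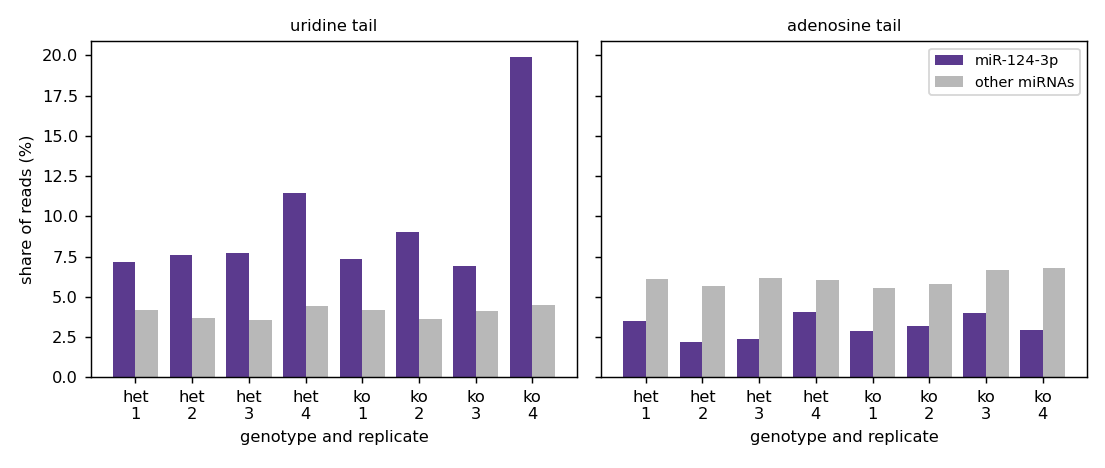
Share of reads (%) with a uridine tail (left) and with an adenosine tail (right) in each library, for miR-124-3p (purple) and for the pooled other miRNAs (grey). The pool holds miRNAs averaging at least 100 CPM. miR-124-3p is above the others for uridine and below them for adenosine in all 8 libraries, with 19.9% uridine tails in ko replicate 4.

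On the 5p arm, reads whose 3′ end was off the hairpin averaged 3.11% ± 1.76 for het against 5.89% ± 1.58 for ko (4 mice per genotype, exact permutation p = 0.0857). An A tail was on 2.57%, 1.16%, 0.588% and 2.80% of 5p reads in het and on 4.14%, 2.93%, 4.31% and 5.94% in ko, so the groups did not overlap. The exact permutation p of 0.0286, the smallest it could give, became 0.286 after adjustment over 10 tests of tail and arm, and the comparison was chosen after the values were seen. It rests on few reads, as the 5p arm had 219 reads in ko replicate 4 and 272 in het replicate 1.

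The number of distinct 3p sequences was 237 to 572 per library and rose with depth. Brought to the depth of the shallowest library by calculation, it was 204.7 to 273.6, lowest in ko replicate 3 and highest in het replicate 3. For the 5p arm it was 8 to 28 as sequenced and 8.0 to 12.8 at equal depth.

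The other neuronal miRNAs give the setting of these levels. Of the 15 on the neuron list besides the miR-124 arms, none was called by limma, edgeR or DESeq2. By limma, 9 had a positive and 6 a negative log2 fold change, and the median was 0.10, beside -0.09 for all miRNAs. An unadjusted p under 0.05 was found for 2 of the 15, against 7.34% of all miRNAs. These were miR-138-5p (-0.61, adjusted p = 0.529) and miR-136-5p (-1.54, adjusted p = 0.266), which are named for their values. None of 3 oligodendrocyte, 8 microglia and blood, 4 endothelium and 2 choroid plexus miRNAs was called by limma, which called 1.3% of all, nor by edgeR or DESeq2, and 1 in each of these lists but endothelium had an unadjusted limma p under 0.05. miR-128-3p, which restrains neuronal excitability, had 68599 CPM and a log2 fold change of 0.33 (95% interval -0.19 to 0.85), and miR-9-5p, which acts in neurogenesis, had 57047 CPM and 0.41 (95% interval -0.14 to 0.95). The activity-regulated miR-132-3p had 25460 CPM and 0.17 (95% interval -0.28 to 0.62), and miR-9-3p had 17795 CPM and 0.21 (95% interval -0.27 to 0.68). The called miRNAs on any list were the epithelial miR-200a-3p (-3.80), miR-200b-3p (-2.86) and miR-429-3p (-3.98). DESeq2 called these 3 as well, while edgeR did not call miR-200b-3p (adjusted p = 0.0841). For miR-200b-3p the limma adjusted p was also above the threshold without het replicate 1 (0.065), het replicate 4 (0.088), ko replicate 1 (0.0749) or ko replicate 2 (0.0899), and it was 0.217 without both of the deepest libraries.

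The miRNAs whose level was most like that of miR-124-3p over the 8 libraries, of 277 compared by Pearson's r of the log2 levels, were miR-30e-3p (0.85), miR-30a-3p (0.81), miR-181a-5p (0.78), miR-125b-5p (0.78) and miR-22-5p (0.76). For miR-124-5p they were miR-185-5p (0.90), miR-1839-5p (0.89), the reads shared by miR-199a-3p and miR-199b-3p (0.85), miR-338-3p (0.81) and miR-190a-5p (0.80). The lists of the arms had no miRNA in common. With 8 libraries that share their depth and scaling, these values are a description.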

How the data were processed

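Argonaute-bound small RNAs of 8 brains were sequenced, and the titles of the samples gave the groups and replicate numbers. The table came from the SPOROS pipeline of the authors, after adapter trimming with Trim Galore. Its genome build and tool versions are not given in the sources used here. The deposited values are CPM per read sequence, scaled by the authors, and the deposited viability score is the authors' mean over 3 cell lines and was not measured in these mice. Scaling makes each level relative to the rest of its library. Rare reads had been removed, as every sequence had at least 8 reads in all. 100.0% of the values were whole reads within 0.001 CPM, which gave the depth of 509839 to 19878054 reads.

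CPM were summed by miRNA name, by miRNA and seed, and by seed. For each, the log2(CPM + 1) of all features averaging 10 CPM or more entered a limma 3.58.1 fit (R 4.3.3, moderated by eBayes with a mean trend and robust variances), with Benjamini-Hochberg adjustment. Fold changes are on this scale and understate those of low features. edgeR 4.0.16 and DESeq2 1.42.0 were run as alternatives on the recovered reads, where they called 4 and 9 miRNAs against 6 by limma. Per-library measures were compared by exact two-sided permutation tests. Starts, ends and tails (up to 3 added bases) came from an exact match of reads to the miR-124 hairpins of GENCODE M21. Those of other miRNAs came from a match to their own hairpins. This covered other miRNAs averaging at least 100 CPM whose most abundant read was found in an annotated hairpin. Python 3.11.15, numpy 2.4.6, scipy 1.17.1, pandas 2.3.3 and matplotlib 3.10.9 were used. The fits were tested on simulated data.

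Named by rule were both arms, their seeds with at least 10 CPM, the 5 most abundant reads of each arm (of 5p, 4 reached the filter), the 5 most alike miRNAs with at least 100 CPM, the 4 most abundant other neuronal miRNAs and listed miRNAs past the threshold. The miRNAs and lists were chosen with earlier results of these data known.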

Additional observations from a re-analysis of the deposited data

Results flagged for a closer look

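A library stood apart from the other 3 of its genotype in 5 of 74 groups of 4 that were examined, where chance gives about 3.7. For U tails on miR-124-3p this was the case in both genotypes, with 11.5% in het replicate 4 (next 7.71%) and 19.9% in ko replicate 4 (next 9.04%). U tails were also compared among 73 miRNAs with at least 1000 CPM and U tails on at least 0.5% of reads. The ratio of ko replicate 4 to the median of the other libraries was 2.62 for miR-124-3p, number 3 of them, against a median of 1.11. Of the 73, 20 had their highest U tail share in ko replicate 4, miR-124-3p among them. In the 5p arm, ko replicate 4 was apart with 202.8 CPM of the GUGUUC form (next 321.0 CPM) and with 5.48% of reads of other seeds (next 2.35%). The 22 nt read from the main start of miR-124-3p had 5882 CPM in het replicate 1 (next 3430 CPM).

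Reads named for a miR-124 hairpin but for no mature arm were outside the comparisons. They held 1150 CPM on average (861.7 to 1520 CPM per library) in 521 sequences, of which 495 had a mismatch to the hairpins and 26 matched the 3p arm exactly, with a mean of 281.6 CPM.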

How the results depend on the processing

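None of the miR-124 arms, seeds or reads passed the threshold under any of the alternatives run, and 601 recomputed values kept their direction and their side of the threshold, while 54 changed sign and 4 came under an unadjusted exact p of 0.05. For miR-124-3p the log2 fold change was 0.092 after centring, 0.0093 with TMM scaling, 0.034 in edgeR and 0.044 in DESeq2, and relative to the median of all miRNAs it was between -0.04 and -0.02 in each. Centring adds 1 value to all features of a fit, and so turned AAGGCA (0.032), UAAGGC (0.10), UUAAGG (0.056) and the 22 nt read of 3p (0.0095). UAAGGC was 0.032 with TMM scaling, 0.061 in edgeR, 0.041 in DESeq2 and 0.031 without the 2 deepest libraries, where the 22 nt read of 3p was 0.18 and that of 5p -0.13. This 5p read was -0.055 in edgeR and -0.038 in DESeq2, and CUAAGG was -0.034 with a pseudocount of 10, -0.16 in edgeR and -0.15 in DESeq2. Leaving out 1 library at a time kept the sign of miR-124-5p (-0.47 without het replicate 3, -0.14 without het replicate 1 or ko replicate 4), of its GUGUUC form (-0.49, -0.15 and -0.14 without the same libraries) and of AAGGCA (-0.36 without het replicate 4 to -0.015 without ko replicate 2), AUUAAG (-0.59 without het replicate 4) and the 19 nt read of 3p (-0.42 without het replicate 4, -0.14 without het replicate 2). For the 5p reads of 21 nt and 20 nt it gave -0.60 to -0.26 and -0.63 to -0.19. Leaving out 1 library gave -0.34 to 0.0010 for miR-124-3p, -0.27 to 0.061 for UAAGGC, -0.25 to 0.17 for AGGCAC, -0.080 to 0.33 for GGCACG, -0.29 to 0.027 for UUAAGG, -0.20 to 0.22 for AUAAGG, -0.26 to 0.21 for GAGGCA and -0.38 to 0.43 for CUAAGG. Among reads it gave -0.24 to 0.25 (3p, 21 nt), -0.25 to 0.18 (3p, 22 nt), -0.12 to 0.32 (3p, 22 nt from the upstream start), -0.22 to 0.51 (5p, 22 nt) and -0.54 to 0.082 (5p, 23 nt). The difference of ko and het ranged from -0.175 to 0.0648 percentage points for the 5p share and from -0.564 to 3.99 for 3p ends off the hairpin. Its range was 1.89 to 5.79 for the top 3p read, 0.0845 to 0.139 nt for 5p length, 2.0 to 3.45 for 5p ends off the hairpin and -8.79 to -3.86 for the top 5p read. For these 4 the exact permutation p was 0.0286 without het replicate 1, or for 5p ends without het replicate 4, before adjustment. Other than for centring, the cause of these shifts was not tested.

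Same-numbered mice are different animals, and their deviations correlated by 0.04, 0.29, -0.18 and 0.25, so the numbers were not taken as pairs. With the replicate block the log2 fold change was -0.13 for miR-124-3p and -0.30 for miR-124-5p, no miR-124 call changed, and 10 miRNAs were called in place of 6, among them 1 of the 15 other neuronal ones. The 5p arm had fewer reads than the 3p arm in every library, so depth limits it more than the 3p arm. The 219 reads it had in ko replicate 4, its fewest, give a counting error of 6.76%, where the SD between mice was 28.1% of the mean in het and 20.8% in ko. Adding the exact hairpin reads without a mature name, chosen after seeing the data, left the log2 fold change of miR-124-3p at -0.13.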
